A study of Homo sapiens with 12 samples.

Results

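The mRNA levels of 10 lipogenic genes, ACLY, ACACA, FASN, SCD, FADS1, FADS2, ELOVL1, ELOVL6, ACSS2 and ME1, were followed in a pair of gastric cancer cell lines with and without cantharidin sodium. Their enzymes make, lengthen and desaturate fatty acids in the cytosol and the endoplasmic reticulum. The genes were matched by symbol, and each of the 10 was found among the 32269 genes of the count table. Libraries came from 4 groups of 3, called biological replicates in the series' design text. They were MKN1 cells treated with cantharidin sodium, untreated MKN1 cells, AGS cells treated with cantharidin sodium and untreated AGS cells. MKN1 is labelled as a gastric adenosquamous carcinoma line and AGS as an epithelial gastric adenocarcinoma line, both of genotype WT and both kept in RPMI-1640 with serum. Cantharidin, the toxin of blister beetles from which the sodium salt is made, is an inhibitor of the serine/threonine phosphatases PP2A and PP1. Dose and treatment time are both not given in the sources used here. That design text is the only statement on where the replicates come from, and the p-values below measure the spread between these libraries.

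De novo lipogenesis begins with citrate, which leaves the mitochondrion and is split by ACLY into acetyl-CoA, while ACSS2 makes acetyl-CoA from acetate. ACACA carboxylates acetyl-CoA to malonyl-CoA, FASN builds palmitate from these units with NADPH that ME1 helps to supply, and ELOVL6 and ELOVL1 lengthen the chain. SCD places the double bond of oleate, and FADS2 and FADS1 desaturate polyunsaturated chains. Transcription of most of these genes is raised by the sterol-regulated SREBP factors, which also drive cholesterol synthesis, and many carcinomas express them strongly.

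RefSeq promoter windows (GRCh38.p14) were at hand for 9 of the 10 genes, all except FASN, and the 250 bases before the start are shown for 4 genes on which the results turn. ACLY and ELOVL1 responded differently in the lines, and FADS1 and ME1 were close to absent from AGS. Capitals mark CCAAT, the box bound by NF-Y, or its reverse complement ATTGG. Each sequence runs 5′ to 3′ on the strand of its gene, here the minus strand for all 4, and they lie at chr17:41919023-41919272, chr1:43368012-43368261, chr11:61817004-61817253 and chr6:83431052-83431301.
ACLY: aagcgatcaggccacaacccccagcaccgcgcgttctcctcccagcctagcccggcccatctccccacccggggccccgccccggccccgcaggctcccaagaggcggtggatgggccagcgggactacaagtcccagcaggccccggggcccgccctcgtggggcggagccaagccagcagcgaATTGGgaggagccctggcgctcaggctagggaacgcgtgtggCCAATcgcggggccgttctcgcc
ELOVL1: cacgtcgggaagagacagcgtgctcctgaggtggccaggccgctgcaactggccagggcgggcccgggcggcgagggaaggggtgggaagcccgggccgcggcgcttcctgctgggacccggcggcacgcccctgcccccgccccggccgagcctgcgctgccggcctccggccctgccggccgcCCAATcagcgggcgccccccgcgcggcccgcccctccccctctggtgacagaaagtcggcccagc
FADS1: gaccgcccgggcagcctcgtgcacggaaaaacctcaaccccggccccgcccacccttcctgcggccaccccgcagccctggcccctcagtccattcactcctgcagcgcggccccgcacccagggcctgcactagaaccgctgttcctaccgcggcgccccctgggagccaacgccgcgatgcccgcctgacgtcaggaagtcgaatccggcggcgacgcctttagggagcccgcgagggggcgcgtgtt
ME1: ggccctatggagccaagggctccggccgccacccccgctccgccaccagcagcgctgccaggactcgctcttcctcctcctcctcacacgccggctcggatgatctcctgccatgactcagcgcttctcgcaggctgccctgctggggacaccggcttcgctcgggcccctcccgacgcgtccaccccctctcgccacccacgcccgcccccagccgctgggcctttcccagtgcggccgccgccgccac
ACLY carried CCAAT 65 and 23 bases before the start shown, which is 136 and 94 bases before its second start. ELOVL1 carried it 65 bases before its start. Neither FADS1 nor ME1 held the letters in this window. The table holds 1 to 3 windows a gene, 14 for the 9 genes. Windows of a gene can overlap, as those of ACLY do, so the same letters can count more than once. By gene, CCAAT was present in 5 of the 9. Besides ACLY and ELOVL1 these were ACACA, SCD and ACSS2, whose response was not called in either line. FADS2, which was called in AGS, and ELOVL6 held no CCAAT in their windows. Over both strands, CCAAT was present in 7 of the 14 windows and in 32.0% of 35116 RefSeq promoter windows of the same length. The GC box GGGCGG, bound by SP1, was present in 12 of the 14 windows and in 42.6% of all windows. The E-box CACGTG and the sterol response element TCACNCCAC were present in 0 of the 14, against 6.34% and 0.883% of all windows. Matches may overlap, as CCAAT does with a GC box of the other strand in ELOVL1. They describe letters, not binding.

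Library totals were 28604966 to 51604215 counts, and 20280 genes passed a filter on low counts over the 4 groups, the 10 lipogenic genes among them. ME1 passed only through MKN1. AGS replicates correlated at 0.988 to 0.990 in log2 CPM (counts scaled to library size) and treated MKN1 replicates at 0.977 to 0.982. Untreated MKN1 replicate 3 stood apart, at 0.970 and 0.972 with replicates 1 and 2, which correlated at 0.985. Epithelial markers summed to 3911 to 6620 CPM over the 12 libraries, most of it from keratins such as KRT8. EPCAM averaged 21.0 CPM in treated and 21.8 CPM in untreated MKN1 cells, against 439 and 429 CPM in AGS. CDH1 averaged 8.11 and 9.30 CPM in MKN1, against 21.7 and 20.8 CPM in AGS, in the same order. Mesenchymal markers summed to 1352 to 2332 CPM in MKN1 and 16.7 to 23.5 CPM in AGS. Of these, CDH2 averaged only 0.0647 to 0.200 CPM over the groups. Squamous markers such as KRT5 and TP63 summed to 1462 to 2901 CPM in MKN1 and stayed below 0.771 CPM in AGS, where KRT5 had no read in untreated cells. Gastric and intestinal markers summed to 30.5 to 40.8 CPM in treated and 34.6 to 44.6 CPM in untreated MKN1 cells, and to 113 to 125 CPM in treated and 87.9 to 96.6 CPM in untreated AGS cells. Nearly all of it in MKN1 was GATA6, at 36.5 CPM treated and 38.6 CPM untreated, while LGALS4, MUC5AC, TFF1 and CLDN18 averaged at most 0.386 CPM. In AGS GATA6 averaged 63.7 CPM treated and 66.3 CPM untreated, LGALS4 45.3 and 22.9 CPM, and MUC5AC at most 0.261 CPM. Markers of fibroblasts, endothelium and blood summed to 0.839 to 0.912 CPM in treated AGS cells, with PTPRC and HBA1 at 0, against 11.3 to 22.9 CPM in untreated AGS cells, with PECAM1 at 0. In untreated AGS cells COL3A1, PDGFRB, VWF and PTPRC averaged 0.0190, 1.65, 0.558 and 0.275 CPM, so most of that sum lay in HBB and HBA1. In MKN1 the same markers summed to 5.43 to 5.74 CPM treated and 5.55 to 10.1 CPM untreated. The part of these markers in the results was not tested. CPM is relative to all mRNA of a library, so fewer cells with a transcript and less of it per cell cannot be told apart.

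The lines differed in the direction in which FASN and ELOVL1 changed with cantharidin sodium. In treated MKN1 cells FASN and ELOVL1 rose, whereas in treated AGS cells FASN, ACLY and ELOVL1 fell and FADS2 rose. By edgeR's quasi-likelihood test with Benjamini-Hochberg adjustment over all tested genes and a threshold of 0.05, 2 of 10 genes were higher and 0 lower in MKN1, where 6.7% of all tested genes were called, 2.8% higher and 3.9% lower. At an unadjusted p below 0.05, 4 of the 10 were higher and 0 lower in MKN1. No share of all tested genes was taken at that cut. DESeq2 called 3 of the 10 in MKN1, and it called 2459 of the 20280 tested genes, 1020 higher and 1439 lower. The edgeR count in MKN1 was 0 without MKN1 treated replicate 3, where 1295 of 20756 tested genes were called. It was also 0 without MKN1 untreated replicates 1 (756 of 20911) or 2 (336 of 20936). It was 1 without MKN1 treated replicate 1 (1169 of 20904) or any AGS library (832 to 935 of all tested genes). Without MKN1 untreated replicate 3 it was 4, 3 higher and 1 lower, where 3160 of 20928 tested genes were called. In AGS 1 of 10 was higher and 3 were lower, against 20.8% of all tested genes, 9.21% higher and 11.6% lower. In MKN1 the groups were free of overlap for 4 genes, each higher when treated, where 21.4% of all tested genes did not overlap, 9.95% higher and 11.4% lower. In AGS they did not overlap for 3 genes higher and 3 lower, against 52.4% of all tested genes, 25.6% higher and 26.8% lower. The median log2 fold change of the 10 was 0.34 in MKN1 (0.01 over all tested genes) and 0.01 in AGS (−0.01 over all). The difference between the effects, MKN1 minus AGS, passed for 4 of 10 genes, 3 positive and 1 negative, against 15.7% of all tested genes, 8.38% positive and 7.3% negative. For ACLY, FASN and ELOVL1 the estimate was positive in MKN1, negative in AGS and the difference was called, a combination met by 7.47% of all tested genes.

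**Figure D1:**
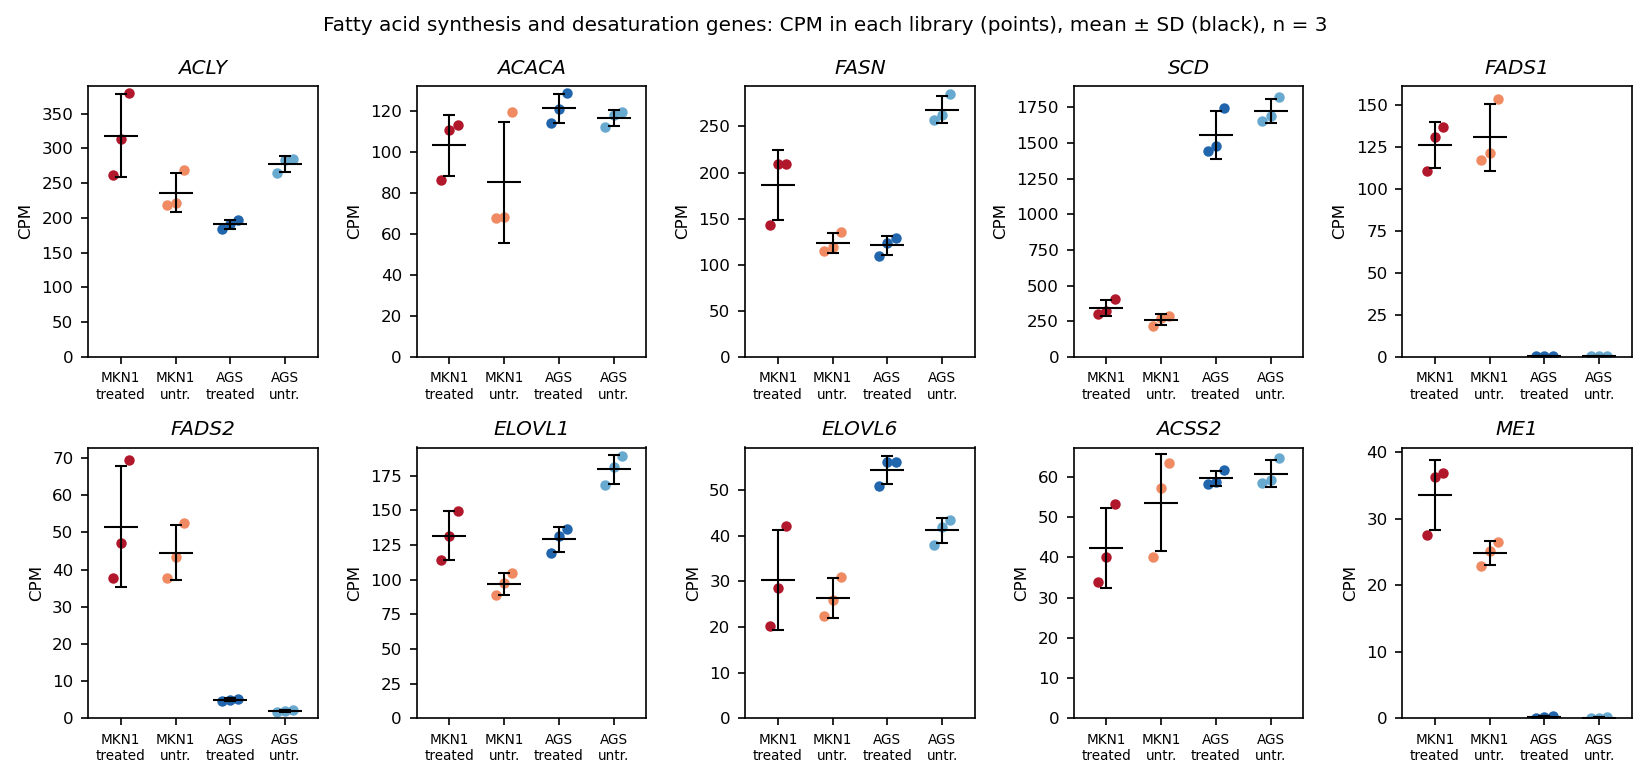
Each panel gives the CPM of 1 gene on a linear axis from 0. Points are libraries and black lines are the mean ± SD of 3 libraries; untr. stands for untreated. FASN, ACLY and ELOVL1 sit higher in treated than untreated MKN1 cells on average and lower in treated than untreated AGS cells, and FADS1, FADS2 and ME1 are near the axis in AGS.

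FASN, the multifunctional synthase that builds palmitate, showed the widest gap between the lines' responses among the 10 genes. The gene (ENSG00000169710) lies at chr17:82078333-82098332 on the minus strand of GRCh38, in the positions of GENCODE release 29. Treated MKN1 libraries held 208.9, 143.1 and 208.9 CPM, against 115.2, 135.7 and 118.7 CPM in untreated MKN1 libraries. All treated libraries thus lay above all untreated ones, with treated replicate 2 close to the highest untreated value. FASN rose in MKN1 with log2 fold change 0.60 (SE 0.14, adjusted p = 0.0277, edgeR).

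In AGS the same gene ran the other way. Treated AGS libraries held 124.0, 109.7 and 129.3 CPM, against 262.7, 257.4 and 285.2 CPM in untreated AGS libraries, so that the groups were far apart. FASN fell in AGS by 1.15 on the log2 scale (SE 0.14, adjusted p = 0.00045, edgeR), to 0.451 of its untreated level. This call held in 22 of 22 alternative settings. The difference between the effects, 1.75 (SE 0.20, adjusted p = 0.000294, edgeR), held in 21 of 21. Changes in AGS followed the GC content of transcripts (Spearman −0.27 over 20207 genes, a description across genes), and the FASN transcript is 65.3% GC, above 97.1% of tested genes. With GC and length trends removed FASN changed by −0.93 (adjusted p = 0.000778, edgeR).

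The MKN1 rise of FASN was less secure than the AGS fall, and its call ended in 7 of 22 alternatives. It ended without MKN1 treated replicate 1 (log2 fold change 0.52, adjusted p = 0.08), without MKN1 treated replicate 3 (0.51, adjusted p = 0.0637), without MKN1 untreated replicate 1 (0.55, adjusted p = 0.0831) and without MKN1 untreated replicate 2 (0.66, adjusted p = 0.0741), all by edgeR. It also ended with no filter on low counts (adjusted p = 0.0528) and with MKN1 fitted alone (adjusted p = 0.156). The estimate stayed between 0.51 and 0.76 over the 22 alternatives.

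ACLY, the ATP-citrate lyase that turns exported citrate into cytosolic acetyl-CoA, followed FASN in direction. It is encoded by ENSG00000131473 at chr17:41866908-41930542 on the minus strand, and 2.99% of its exon bases overlap an antisense transcript. Treated MKN1 libraries held 313.5, 261.9 and 380.0 CPM, against 218.1, 221.8 and 269.4 CPM in untreated MKN1 libraries. Treated replicate 2 lay just below untreated replicate 3, and the other treated libraries lay above all untreated ones. The log2 fold change was 0.43 (SE 0.13, adjusted p = 0.0725, edgeR), which missed the threshold. It passed in 8 of 22 alternatives, among them without MKN1 untreated replicate 3 (0.53, adjusted p = 0.0214) and without MKN1 treated replicate 2 (0.55, adjusted p = 0.0365).

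Treated AGS libraries held 190.8, 184.1 and 197.5 CPM of ACLY, against 283.6, 285.0 and 264.0 CPM in untreated AGS libraries. Both groups were tight and did not overlap. ACLY fell in AGS by 0.54 on the log2 scale (SE 0.13, adjusted p = 0.014, edgeR), a call that ended without AGS treated replicate 2 (−0.52, adjusted p = 0.0571). The MKN1 effect exceeded the AGS effect by 0.97 (SE 0.19, adjusted p = 0.00502, edgeR), and this difference held in 21 of 21 alternatives.

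ACSS2, the nucleocytosolic acetyl-CoA synthetase that uses acetate, did not share this pattern. The gene (ENSG00000131069) lies at chr20:34872146-34927962 on the plus strand. In treated MKN1 cells ACSS2 stood at 53.3, 40.1 and 33.8 CPM, against 57.3, 63.3 and 40.1 CPM in untreated MKN1 libraries. The groups overlapped, because untreated replicate 3 was as low as treated replicate 2, and the log2 fold change was −0.34 (SE 0.18, adjusted p = 0.271, edgeR). Without MKN1 untreated replicate 3 it was −0.51 and passed (adjusted p = 0.0417). AGS libraries all lay close together, at 61.8, 58.8 and 58.2 CPM when treated and 58.5, 59.3 and 64.7 CPM when untreated. The AGS log2 fold change was −0.03 (95% interval −0.41 to 0.35, adjusted p = 0.927, edgeR); its sign turned without AGS untreated replicate 3 (0.01) and with GC and length trends removed (0.10).

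ME1, the cytosolic malic enzyme that yields NADPH, was read mainly in MKN1. It is encoded by ENSG00000065833 at chr6:83210389-83431071 on the minus strand. ME1 in treated MKN1 cells stood at 36.3, 36.8 and 27.5 CPM, against 26.5, 25.2 and 22.9 CPM in untreated MKN1 libraries. Every treated value lay above every untreated value, but the log2 fold change of 0.43 (SE 0.26, adjusted p = 0.351, edgeR) did not pass. AGS cells gave 10, 5 and 4 reads of ME1 when treated and 3, 6 and 0 when untreated, where 3 counts were taken as the floor of a library. The fitted AGS change of 1.25 (SE 0.66, adjusted p = 0.198, edgeR) rests on these few reads and ranged from 0.71 to 2.30 over 21 alternatives.

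ACACA, the carboxylase that makes malonyl-CoA and commits carbon to fatty acids, had no called response in either line. Its gene (ENSG00000278540) lies at chr17:37084988-37406818 on the minus strand. In treated MKN1 cells ACACA stood at 112.9, 86.1 and 110.5 CPM, against 68.3, 67.7 and 119.2 CPM in untreated MKN1 libraries. Untreated replicate 3 was the highest of the 6, while the other untreated libraries were the lowest. The log2 fold change was 0.28 (SE 0.19, adjusted p = 0.409, edgeR), and without MKN1 untreated replicate 3 it was 0.60 and passed (adjusted p = 0.0073). The difference between the lines' effects, 0.22 (adjusted p = 0.612), likewise passed at 0.54 without that library (adjusted p = 0.0301). In AGS, treated libraries held 114.2, 120.9 and 128.4 CPM, against 118.1, 119.5 and 112.2 CPM in untreated libraries. These overlapped, with a log2 fold change of 0.06 (95% interval −0.35 to 0.46, adjusted p = 0.866, edgeR) that was −0.00387 with GC and length trends removed.

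**Figure D2:**
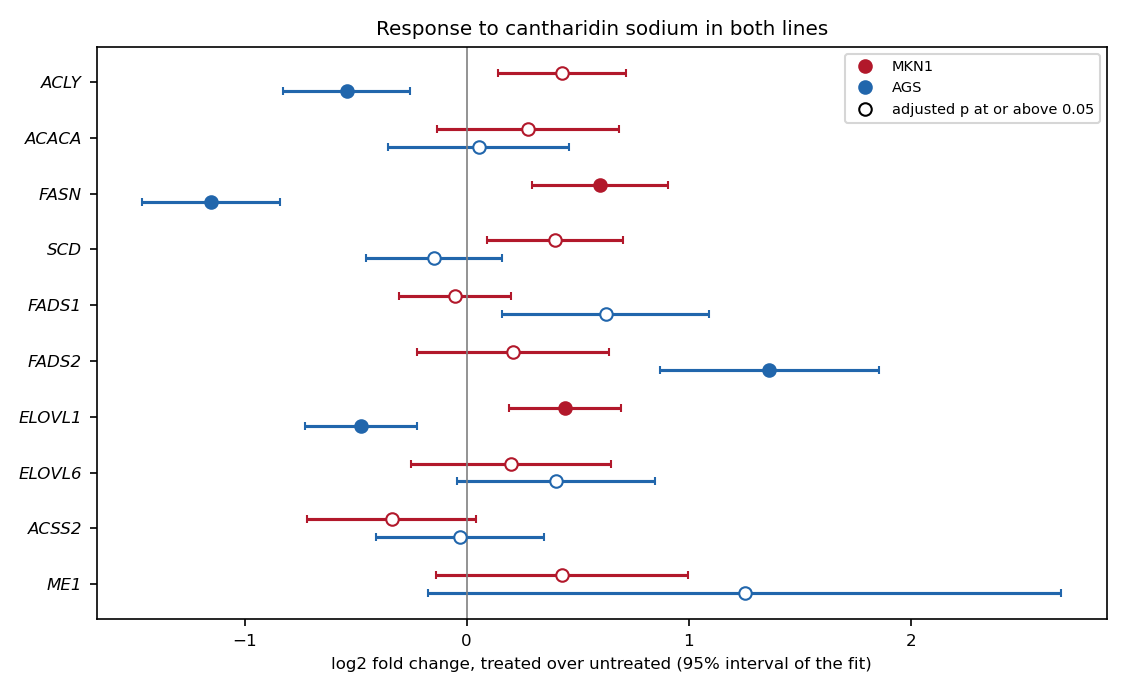
Points are log2 fold changes of treated over untreated cells in MKN1 (red) and AGS (blue), bars are 95% intervals of the edgeR fit, and open points have an adjusted p at or above 0.05. For FASN, ACLY and ELOVL1 the intervals of the lines lie on opposite sides of 0, and for FADS2 the AGS estimate of 1.36 lies above the MKN1 estimate of 0.21.

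Of the elongases ELOVL1 and ELOVL6, ELOVL1 was called in both lines and ELOVL6 in neither. The genes' responses were not tested against each other. ELOVL1, which lengthens saturated and monounsaturated chains into very long ones, is encoded by ENSG00000066322 at chr1:43363397-43368074 on the minus strand. Treated MKN1 libraries held 114.3, 131.7 and 149.4 CPM, against 97.4, 104.8 and 88.6 CPM in untreated MKN1 libraries. The groups did not overlap, and ELOVL1 rose in MKN1 with log2 fold change 0.44 (SE 0.12, adjusted p = 0.0418, edgeR). This call lay at the threshold and ended in 14 of 22 alternatives, with adjusted p of at most 0.204. Among them were the fits without MKN1 untreated replicates 1 (0.0929), 2 (0.0948) or 3 (0.0546), without MKN1 treated replicates 2 (0.0904) or 3 (0.0902), and with each of the 6 AGS libraries left out in turn (0.0609 to 0.0696). Estimates ranged from 0.34 to 0.55.

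Treated AGS libraries held 119.3, 131.5 and 136.3 CPM of ELOVL1, against 181.3, 168.0 and 189.2 CPM in untreated AGS libraries. Every treated library was lower than every untreated one. ELOVL1 fell in AGS by 0.48 on the log2 scale (SE 0.12, adjusted p = 0.0136, edgeR). Leaving out AGS treated replicate 1 (−0.42, adjusted p = 0.0628) or AGS untreated replicate 3 (−0.44, adjusted p = 0.0598) ended the call. With GC and length trends removed the change was −0.29 (adjusted p = 0.0532). The difference between the effects was 0.92 (SE 0.17, adjusted p = 0.00338, edgeR) and held in 21 of 21 alternatives.

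ELOVL6, which elongates palmitate to stearate, lies at chr4:110045846-110199199 on the minus strand (ENSG00000170522). In treated MKN1 cells ELOVL6 stood at 42.0, 28.6 and 20.3 CPM, against 25.8, 22.4 and 30.9 CPM in untreated MKN1 libraries. Treated replicate 1 was the highest and treated replicate 3 the lowest of the 6. The log2 fold change was 0.20 (SE 0.21, adjusted p = 0.608, edgeR) and −0.12 without MKN1 treated replicate 1. In AGS, treated libraries held 56.2, 51.0 and 56.1 CPM, against 43.5, 42.0 and 38.1 CPM in untreated libraries. Treated values lay above untreated ones throughout, with log2 fold change 0.40 (SE 0.21, adjusted p = 0.186, edgeR). With AGS fitted alone that change passed (0.40, adjusted p = 0.00155).

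SCD, the stearoyl-CoA desaturase that makes oleate, was abundant in AGS and changed little there. Its gene (ENSG00000099194) lies at chr10:100347124-100364834 on the plus strand. Treated MKN1 libraries held 408.7, 298.0 and 323.2 CPM, against 275.4, 287.9 and 218.0 CPM in untreated MKN1 libraries. No values overlapped, yet the log2 fold change of 0.40 (SE 0.14, adjusted p = 0.111, edgeR) missed the threshold. Treated AGS libraries held 1750, 1478 and 1444 CPM, against 1693, 1820 and 1657 CPM in untreated AGS libraries. Treated replicate 1 lay within the untreated range, and the change was −0.15 (95% interval −0.45 to 0.16, adjusted p = 0.491, edgeR). The difference between the effects, 0.55 (adjusted p = 0.0833), passed without MKN1 treated replicate 2 (0.64, adjusted p = 0.0467) and with library totals in place of scaling factors (0.61, adjusted p = 0.0436).

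FADS1 and FADS2, the delta-5 and delta-6 desaturases of polyunsaturated fatty acids, are neighbours on chromosome 11. FADS1 (ENSG00000149485) spans chr11:61799625-61829318 on the minus strand and FADS2 (ENSG00000134824) chr11:61792980-61867354 on the plus strand. Their shared exon bases are 4.79% of FADS1 and 4.44% of FADS2, and FADS2 shares a further 0.444% with FEN1. Counts from these bases cannot be assigned without strand, and their share of each gene's counts was not measured. That share can exceed the share of bases for the lower gene of the pair, which is FADS1 in AGS and FADS2 in MKN1. FADS1 had 68 summed reads in treated and 51 in untreated AGS cells, against 530 and 239 of FADS2.

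FADS2 moved in AGS. Treated AGS libraries held 5.32, 4.98 and 4.53 CPM (162 to 193 reads), against 1.97, 2.17 and 1.62 CPM in untreated AGS libraries (63 to 100 reads). The levels were low but clearly separated. FADS2 rose in AGS with log2 fold change 1.36 (SE 0.23, adjusted p = 0.00209, edgeR), and the call held in 22 of 22 alternatives. In MKN1 FADS2 stood at 69.4, 47.2 and 37.8 CPM in treated libraries, against 43.5, 52.4 and 37.7 CPM in untreated libraries. Apart from treated replicate 1 the values mixed, with log2 fold change 0.21 (SE 0.20, adjusted p = 0.571, edgeR) that turned to −0.07 without that library. The MKN1 effect was below the AGS effect by 1.16 on the log2 scale (difference −1.16, SE 0.30, adjusted p = 0.0219, edgeR). Leaving out AGS treated replicate 1 (−1.10, adjusted p = 0.0534) or AGS untreated replicate 3 (−1.05, adjusted p = 0.0626) ended this call, as did limma voom (−1.19, adjusted p = 0.0551). FEN1 went the other way in AGS, with 39.1 to 48.9 CPM in treated cells against 66.0 to 85.2 CPM in untreated cells.

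FADS1 was near absent from AGS and did not respond detectably in MKN1. FADS1 in treated MKN1 cells stood at 136.7, 130.7 and 110.9 CPM, against 121.2, 117.4 and 153.7 CPM in untreated MKN1 libraries, with ranges that overlapped in part. Its MKN1 log2 fold change was −0.05 (95% interval −0.31 to 0.20, adjusted p = 0.833, edgeR), and the sign turned without MKN1 untreated replicate 3 (0.08), without MKN1 treated replicate 3 (0.03) and with library totals (0.02). In AGS it gave 20, 25 and 23 reads in treated libraries, against 21, 14 and 16 reads in untreated libraries. These counts were 0.608 to 0.645 CPM treated and 0.400 to 0.414 CPM untreated, and the log2 fold change of 0.63 (SE 0.22, adjusted p = 0.0709, edgeR) missed the threshold.

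**Figure D3:**
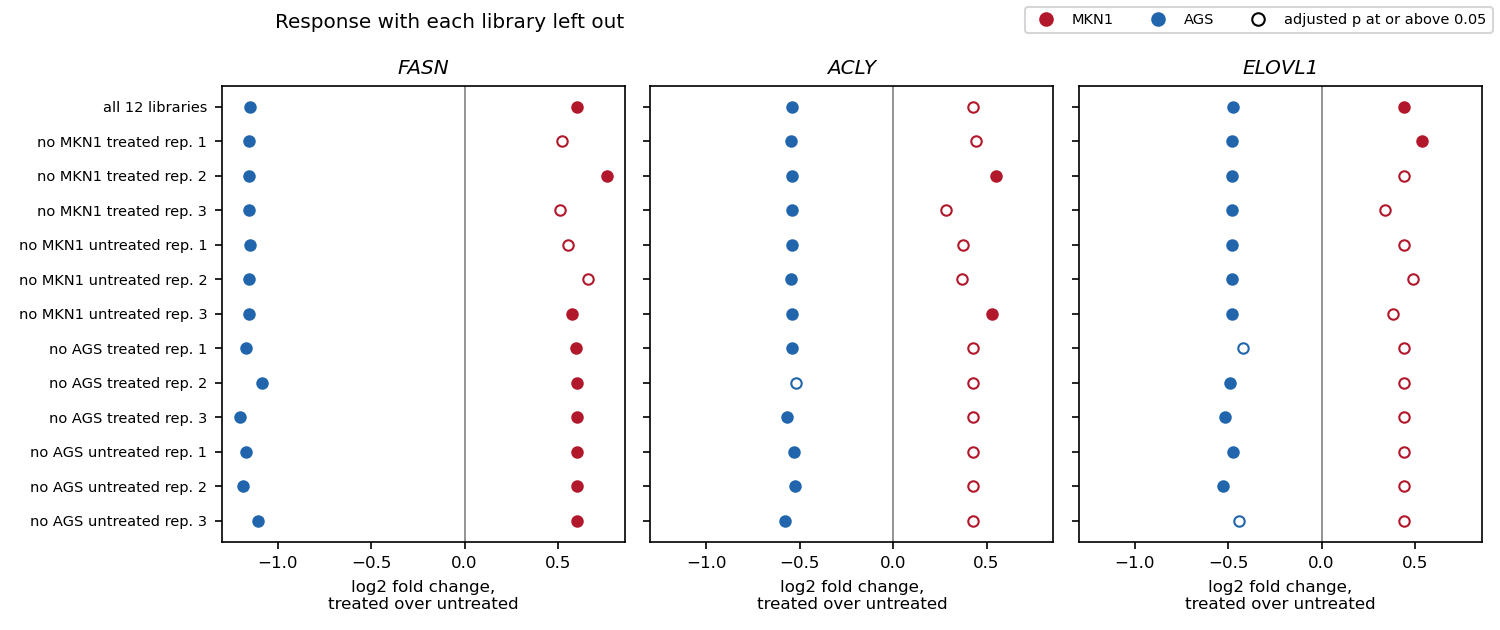
Log2 fold changes of treated over untreated cells for FASN, ACLY and ELOVL1 with all 12 libraries and with each library left out in turn, MKN1 in red and AGS in blue; open points have an adjusted p at or above 0.05. AGS points stay below 0 and MKN1 points above 0 in every row, while leaving out single libraries changes whether a point passes for all 3 genes in MKN1 and for ACLY and ELOVL1 in AGS.

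The lines were also compared with each other at the same treatment. Among untreated cells, MKN1 against AGS, 3 of 10 genes were higher and 5 lower, where 66.3% of all tested genes were called, 34.9% higher and 31.4% lower. Among treated cells 5 were higher and 3 lower, against 68.1% of all tested genes, 36.8% higher and 31.4% lower. The lines did not overlap for 3 genes higher and 4 lower in MKN1 when untreated, and for 5 higher and 4 lower when treated. Over all tested genes the untreated lines did not overlap for 71.4%, 36.8% higher and 34.6% lower. The treated lines did not overlap for 74%, 38.9% higher and 35.1% lower. ME1 is among the genes higher in MKN1 in each of these counts, although it passed the low-count filter only through its MKN1 level. For that reason, and because most genes differed between the lines, the counts are given as a description.

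FADS1, FADS2 and ME1 stood far higher in MKN1. In untreated cells FADS1 averaged 131 ± 19.9 CPM in MKN1 and 0.408 ± 0.00721 CPM in AGS (SD, n = 3 each), a log2 difference of 8.31 (SE 0.18, adjusted p = 2.72e-12, edgeR). In treated cells its difference was 7.63 (SE 0.17, adjusted p = 3.1e-12). FADS2 averaged 44.6 ± 7.39 CPM in untreated MKN1 and 1.92 ± 0.28 CPM in untreated AGS, a log2 difference of 4.53 (SE 0.24, adjusted p = 2.96e-09). After treatment the FADS2 difference was 3.38 (SE 0.22, adjusted p = 2.34e-08). ME1 averaged 24.9 ± 1.85 CPM in untreated MKN1 and 0.0768 ± 0.0871 CPM in untreated AGS. It entered the tests only because of its MKN1 level, so its fitted log2 differences of 8.35 untreated and 7.53 treated are given as a description.

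SCD stood far higher in AGS. Untreated cells averaged 260.4 ± 37.3 CPM in MKN1 and 1724 ± 85.7 CPM in AGS, a log2 difference of −2.73 (SE 0.15, adjusted p = 4.69e-09, edgeR). Treated cells averaged 343 ± 58.1 CPM in MKN1 and 1557 ± 168 CPM in AGS, a difference of −2.18 (SE 0.15, adjusted p = 3.07e-08). ELOVL6 was also lower in MKN1, by 0.64 on the log2 scale when untreated (difference −0.64, SE 0.21, adjusted p = 0.0151) and by 0.84 when treated (difference −0.84, SE 0.21, adjusted p = 0.00275). The untreated call of ELOVL6 ended without MKN1 untreated replicate 2 (−0.50, adjusted p = 0.0775).

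For FASN, the order of the lines turned with treatment. Untreated cells averaged 123 ± 10.9 CPM in MKN1 and 268 ± 14.7 CPM in AGS, a log2 difference of −1.12 (SE 0.14, adjusted p = 1.36e-05, edgeR). Treated cells averaged 187 ± 38.0 CPM in MKN1 and 121 ± 10.1 CPM in AGS, a difference of 0.63 (SE 0.14, adjusted p = 0.00154). The second value was 0.26 with GC and length trends removed and no longer passed (adjusted p = 0.0971). In descending order FASN thus stood highest in untreated AGS, then in treated MKN1, with untreated MKN1 and treated AGS overlapping below.

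ACLY was 318 ± 59.2 CPM in treated MKN1 and 191 ± 6.70 CPM in treated AGS, a log2 difference of 0.74 (SE 0.13, adjusted p = 0.000269, edgeR). In untreated cells it was 236 ± 28.6 CPM in MKN1 and 278 ± 11.7 CPM in AGS, and the difference of −0.23 (SE 0.13, adjusted p = 0.141) did not pass. It passed without MKN1 untreated replicate 3 (−0.33, adjusted p = 0.0439) and with GC and length trends removed (−0.50, adjusted p = 0.000735). ELOVL1 was lower in untreated MKN1 cells, at 97.0 ± 8.11 CPM against 179.5 ± 10.7 CPM in untreated AGS cells (difference −0.89, SE 0.12, adjusted p = 1.88e-05). In treated cells the ELOVL1 levels, 132 ± 17.6 CPM in MKN1 and 129 ± 8.78 CPM in AGS, overlapped. Their log2 difference was 0.03 (95% interval −0.22 to 0.28, adjusted p = 0.829), whose sign turned without AGS treated replicate 1 (−0.03) and without MKN1 treated replicate 3 (−0.07). With GC and length trends removed it was −0.25 and passed (adjusted p = 0.0359).

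For ACACA and ACSS2 the calls between the lines were close to the threshold. Untreated ACACA averaged 85.1 ± 29.5 CPM in MKN1 and 117 ± 3.90 CPM in AGS, a log2 difference of −0.45 (SE 0.19, adjusted p = 0.0486, edgeR), with untreated MKN1 replicate 3 inside the AGS range. That call ended in 15 of 19 alternatives, including those without MKN1 untreated replicate 1 (−0.32, adjusted p = 0.185) and without MKN1 untreated replicate 2 (−0.28, adjusted p = 0.271). In treated cells ACACA differed by −0.23 (adjusted p = 0.29), and by −0.51 with GC and length trends removed (adjusted p = 0.00899). ACSS2 averaged 42.4 ± 9.93 CPM in treated MKN1 and 59.6 ± 1.93 CPM in treated AGS, a difference of −0.49 (SE 0.18, adjusted p = 0.0237). This call ended without AGS treated replicate 1 (−0.47, adjusted p = 0.0615), MKN1 treated replicate 2 (−0.45, adjusted p = 0.0693) or MKN1 treated replicate 3 (−0.35, adjusted p = 0.1). Untreated ACSS2 differed by −0.18 (95% interval −0.56 to 0.19, adjusted p = 0.372).

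**Figure D4:**
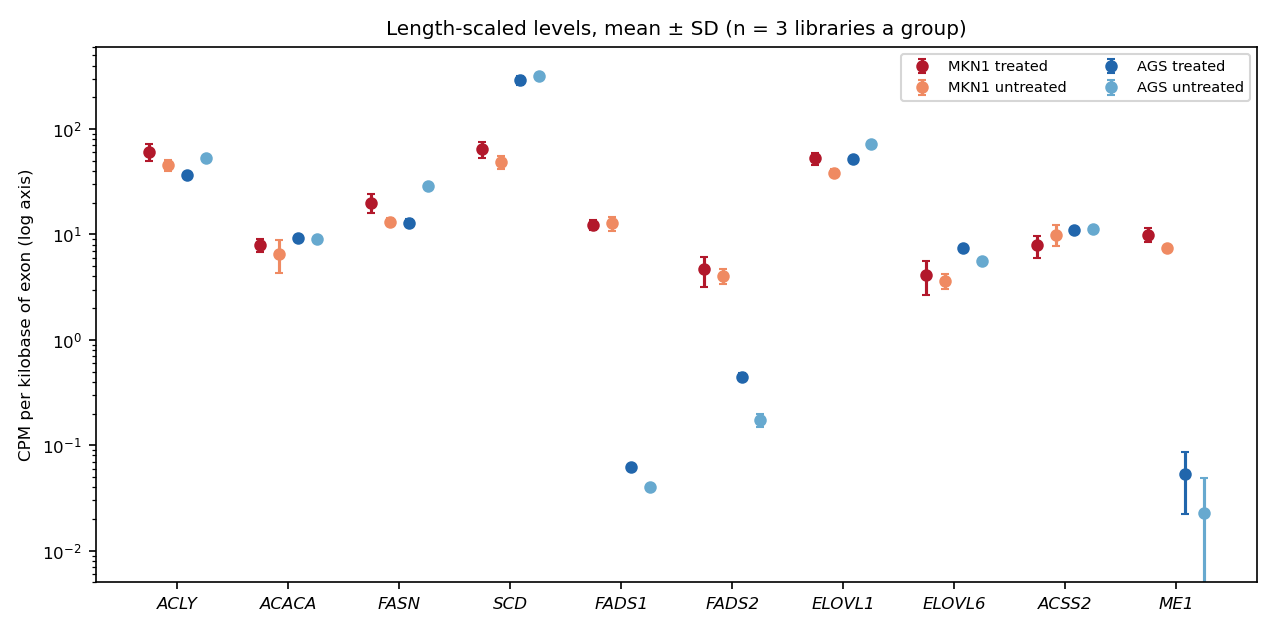
Mean ± SD of CPM per kilobase of exon (log axis) for the 10 genes in treated and untreated MKN1 and AGS cells, 3 libraries a group. SCD leads in all 4 groups, and FADS1, FADS2 and ME1 fall below 0.5 in AGS; the lower bar of ME1 in untreated AGS cells runs off the axis because its SD exceeds its mean.

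Scaled to exon length, SCD was the most abundant of the 10 transcripts in every group. In treated MKN1 cells SCD stood at 64.0 ± 10.8 CPM per kilobase, ACLY at 61.0 ± 11.4 and ELOVL1 at 52.6 ± 7.01, so the leading genes overlapped. In untreated MKN1 cells they were at 48.6 ± 6.95, 45.3 ± 5.49 and 38.7 ± 3.23 CPM per kilobase in the same gene order. In treated AGS cells SCD reached 290.4 ± 31.2 CPM per kilobase, far above ELOVL1 at 51.5 ± 3.50 and ACLY at 36.6 ± 1.28. Untreated AGS cells held 321 ± 15.98 CPM per kilobase of SCD, 71.6 ± 4.28 of ELOVL1 and 53.2 ± 2.25 of ACLY. FASN came next in both AGS groups, at 12.9 ± 1.08 CPM per kilobase when treated and 28.7 ± 1.57 when untreated.

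Around the 10 genes lie those that supply acetyl-CoA, malonyl-CoA and NADPH, and 14 of 15 in that list were tested. For this and each further list, the background is 6.7% of all tested genes called in MKN1 and 20.8% in AGS. In MKN1 1 was higher and 0 lower, with a median log2 fold change of −0.01. In AGS 1 was higher and 5 lower, with a median of −0.31, and leaving out any of the 6 AGS libraries left 2 or 3 calls. IDH1, the cytosolic isocitrate dehydrogenase that makes NADPH, rose in MKN1 by 0.84 on the log2 scale (SE 0.10, adjusted p = 0.000899, edgeR), and its AGS change was 0.14 (adjusted p = 0.323). SLC25A1, the mitochondrial carrier that exports citrate to ACLY, fell in AGS by 0.73 (SE 0.13, adjusted p = 0.00281), and its MKN1 change was −0.09 (adjusted p = 0.713). ACACB, the carboxylase at the mitochondrial surface, fell in AGS by 0.60 (SE 0.17, adjusted p = 0.0243). ME2, the mitochondrial malic enzyme, rose there by 0.43 (SE 0.14, adjusted p = 0.0413). PGD, a dehydrogenase that yields NADPH, fell in AGS by 0.40 (SE 0.10, adjusted p = 0.0133). MID1IP1, which promotes assembly of ACACA into filaments, changed by 0.24 in MKN1 (adjusted p = 0.504) and 0.19 in AGS (adjusted p = 0.523).

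Of the other elongases, desaturases and enzymes of the elongation cycle, 16 of 18 were tested. In MKN1 0 were higher and 2 lower (median −0.12), and in AGS 0 were higher and 4 lower (median 0.15). FADS3, a desaturase-like gene beside FADS2, fell in MKN1 by 0.70 (SE 0.12, adjusted p = 0.00791, edgeR). CYB5R3, the reductase that passes electrons towards the desaturases, fell by 0.39 in MKN1 (SE 0.10, adjusted p = 0.0354) and by 0.39 in AGS (SE 0.10, adjusted p = 0.0164). ACOT7, a thioesterase of long acyl-CoAs, fell in AGS by 0.75 (SE 0.15, adjusted p = 0.00542). An antisense gene covers 20.3% of the ACOT7 exons, which leaves this value uncertain. TECR, the last reductase of the cycle, fell there by 0.64 (SE 0.15, adjusted p = 0.0104).

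Regulators of lipid synthesis formed a list of 22, each tested. In MKN1 0 were higher and 1 lower (median −0.09), and in AGS 4 were higher and 3 lower (median 0.12). SREBF1, which encodes the SREBP factor of lipogenesis, had 110.8, 103.1 and 107.5 CPM in treated AGS libraries, against 147.7, 139.9 and 161.4 CPM in untreated AGS libraries. Without overlap, it fell in AGS by 0.48 on the log2 scale (SE 0.11, adjusted p = 0.0106, edgeR). In MKN1 SREBF1 changed by −0.24 (adjusted p = 0.218), and the difference between the lines, 0.24, did not pass (adjusted p = 0.333). SREBF2, which encodes the factor of the cholesterol pathway, changed by 0.05 in MKN1 (adjusted p = 0.778) and 0.22 in AGS (adjusted p = 0.109).

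INSIG1, the sterol-regulated anchor that holds SREBPs in the endoplasmic reticulum, had 26.0, 22.0 and 23.6 CPM in treated AGS libraries, against 78.0, 71.8 and 75.5 CPM in untreated AGS libraries. The groups lay far apart, and INSIG1 fell in AGS by 1.65 on the log2 scale (SE 0.21, adjusted p = 0.000513, edgeR). In MKN1 INSIG1 changed by 0.53 (adjusted p = 0.148), with treated replicate 2 below all untreated libraries. SCAP, the escort of SREBPs, fell in MKN1 by 0.47 (SE 0.09, adjusted p = 0.0139). PRKAA1, a catalytic subunit of the kinase AMPK that restrains ACACA, rose in AGS by 1.06 (SE 0.17, adjusted p = 0.00169). Also in AGS, MBTPS2, the membrane protease that releases SREBPs, rose by 0.80 (adjusted p = 0.00664; 13.4% of its exon bases are shared with YY2 and a small RNA), INSIG2 rose by 0.55 (adjusted p = 0.00952) and USF1 fell by 0.47 (adjusted p = 0.0392). Of the LXR genes, NR1H2 changed by −0.19 in MKN1 (adjusted p = 0.444) and −0.26 in AGS (adjusted p = 0.201), and NR1H3 by 0.22 in MKN1 (adjusted p = 0.528) and 0.10 in AGS (adjusted p = 0.741).

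Cholesterol synthesis enzymes, the other branch that SREBPs drive, were set beside the lipogenic genes as a list of 19, each tested. In MKN1 6 were higher and 0 lower, against 2.8% higher and 3.9% lower of all tested genes, with a median log2 fold change of 0.45. In AGS 0 were higher and 16 lower, against 9.21% higher and 11.6% lower of all tested genes, with a median of −0.78. The difference between the lines passed for 15 genes, each positive, where 15.7% of all tested genes passed, 8.38% positive and 7.3% negative. SQLE, the squalene epoxidase, rose in MKN1 by 0.99 (SE 0.16, adjusted p = 0.0056, edgeR), and MVK, the mevalonate kinase, fell in AGS by 1.41 (SE 0.15, adjusted p = 0.000184). DHCR7, an enzyme of the last steps, rose in MKN1 by 0.81 (SE 0.13, adjusted p = 0.00596, edgeR) and fell in AGS by 1.63 (SE 0.13, adjusted p = 5.13e-05). FDFT1, the squalene synthase gene, rose in MKN1 by 0.56 (SE 0.09, adjusted p = 0.00557) and fell in AGS by 0.77 (SE 0.09, adjusted p = 0.00028).

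**Figure D5:**
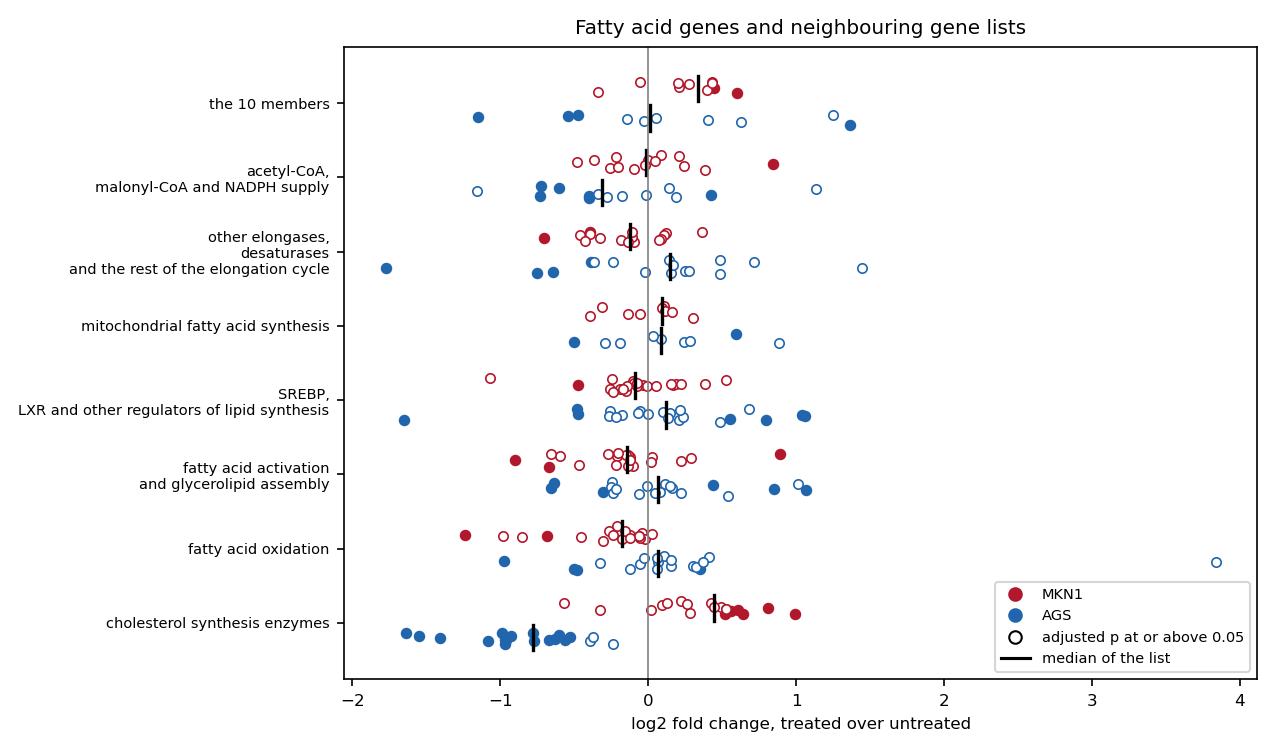
Each point is the log2 fold change of treated over untreated cells for 1 gene of a list, MKN1 in red and AGS in blue; filled points have an adjusted p below 0.05 and black bars are list medians. In MKN1 17 of 19 cholesterol synthesis enzymes have estimates above 0 (median 0.45), and in AGS all 19 lie below 0 (median −0.78), while the 10 lipogenic genes spread to both sides in AGS.

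Of genes that activate fatty acids and build glycerolipids, 20 of 20 were tested, with 1 higher and 2 lower in MKN1 (median −0.14) and 3 higher and 3 lower in AGS (median 0.07), where 6.7% of all tested genes were called in MKN1 and 20.8% in AGS. LPIN1, a phosphatidate phosphatase, rose in MKN1 by 0.89 (SE 0.13, adjusted p = 0.0037, edgeR). DGAT1, which completes triacylglycerol, fell in MKN1 by 0.90 (SE 0.11, adjusted p = 0.00125), whereas it rose in AGS by 0.44 (SE 0.11, adjusted p = 0.0137). LPCAT3, an acyltransferase of phospholipid remodelling, fell in MKN1 by 0.67 (adjusted p = 0.0231), which is uncertain because EMG1 on the other strand covers 65.6% of its exons. ACSL5, an acyl-CoA synthetase, rose in AGS by 1.07 (SE 0.20, adjusted p = 0.00391). LPIN2, a relative of LPIN1, rose in AGS by 0.85 (adjusted p = 0.00393), while AGPAT2 fell by 0.66 (adjusted p = 0.00391) and GPAT4 by 0.31 (adjusted p = 0.0411). AGPAT1, an acyltransferase of phosphatidate synthesis, fell there by 0.64 (SE 0.11, adjusted p = 0.00286), and is uncertain because other genes cover 30.2% of its exons.

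Fatty acid oxidation, the opposing pathway, had 19 of 19 genes tested, 0 higher and 2 lower in MKN1 (median −0.18) and 1 higher and 3 lower in AGS (median 0.07). Against 6.7% of all tested genes in MKN1 and 20.8% in AGS, these called shares are near the background. In MKN1 18 of the 19 estimates lay below 0 and 1 above, where the median over all tested genes was 0.01. The share of all tested genes below 0 was not taken. These genes share the same libraries, so the count is a description. DESeq2 called 5 of the 19 lower and 0 higher in MKN1, against 1439 lower and 1020 higher of the 20280 tested genes. The AGS calls numbered 0 to 2 with each AGS library left out and 7 without MKN1 untreated replicate 3. ACADS, the short-chain acyl-CoA dehydrogenase, fell in MKN1 by 1.24 (SE 0.22, adjusted p = 0.00796, edgeR). ECI1, the enoyl-CoA isomerase, fell there by 0.68 (adjusted p = 0.0171). ACADVL, the very-long-chain counterpart of ACADS, rose in AGS by 0.35 (SE 0.11, adjusted p = 0.0381), and CPT1C, a carnitine palmitoyltransferase family gene, fell there by 0.97 (SE 0.27, adjusted p = 0.0248). ETFB and ETFDH, which pass on electrons from these dehydrogenases, both fell in AGS, ETFB by 0.50 (adjusted p = 0.0287) and ETFDH, 13.8% of whose exon bases lie in other genes, by 0.48 (adjusted p = 0.0331). Mitochondrial fatty acid synthesis had 9 of 9 genes tested. In MKN1 0 of them passed by edgeR, by limma voom or by DESeq2, with 0 in either direction at an unadjusted p below 0.05, and the median was 0.09. In AGS 1 was higher and 1 lower (median 0.08). CBR4, a subunit of the mitochondrial ketoacyl reductase, rose in AGS by 0.60 (SE 0.16, adjusted p = 0.0201), and NDUFAB1, the mitochondrial acyl carrier protein, fell by 0.50 (SE 0.16, adjusted p = 0.0393).

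Among themselves, ACLY, FASN and ELOVL1 varied together over the 12 libraries once each line was centred on its own mean. Pearson's r was 0.90 for ACLY with FASN, 0.85 for FASN with ELOVL1 and 0.80 for ACLY with ELOVL1. FADS1 and FADS2 gave 0.78 with each other and ran against FASN, at −0.81 and −0.69. These points share libraries and treatment groups, so the values are a description. FADS1 and FADS2 met the mean of 5 CPM for this measure only through MKN1. In AGS, treated and untreated, FADS1 averaged 0.632 and 0.408 CPM and FADS2 4.95 and 1.92 CPM, so their values rest in part on low counts. Over 11991 genes, the genes most like FASN by the same measure included the cholesterol enzyme DHCR7 (0.987), HNRNPM (0.974), the antisense and therefore uncertain SREBF2-AS1 (0.974) and DBI (0.971). For SCD the nearest were CETN3 (0.916), HNRNPA3 (0.913), the antisense CBR3-AS1 (0.904), HNRNPA2B1 (0.886) and FLVCR1 (0.872). For FADS2 they were ZNF224 (0.964), the pseudogene ITGB1P1 (0.955), ANKRD36B (0.954), ADGRG6 (0.953) and CWC27 (0.951), of which ITGB1P1 and ANKRD36B have near-identical copies and are uncertain.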

How the data were processed

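RNA was sequenced from 12 libraries in 4 groups of 3. Per the labels' protocols, mRNA libraries were made with the NEBNext Ultra RNA kit, which does not mark strand. HISAT2 2.0.4 and the build hg38/GRCh38 are named in the submitters' processing notes; the counting tool, annotation and strand setting were all not given in the sources used here. Antisense and overlapping genes are therefore uncertain. The authors deposited raw counts, without normalization, for 32269 Ensembl identifiers. A table of current gene names matched 32069 of them, and GENCODE release 29 gave positions and exon lengths.

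Counts were modelled with edgeR 4.0.16 in R 4.3.3 (filterByExpr over the 4 groups, 20280 genes kept; TMM factors; quasi-likelihood F tests on all 12 libraries; Benjamini-Hochberg adjustment over all tested genes; threshold 0.05). CPM were computed on TMM-scaled library totals. SE and 95% intervals come from the fit, with 8 residual and 4.91 prior degrees of freedom. Totals of 28604966 to 51604215 counts set the floor of 3 counts at 0.0591 to 0.109 CPM; floors cover counting error only.

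The members and lists were chosen with earlier results of these data known. Named genes were the 10 members, the fixed regulators SREBF1, SREBF2, INSIG1, MID1IP1, SLC25A1, ACACB, NR1H2 and NR1H3, and from each list at most 3 called genes a line and direction by adjusted p with at least 5 CPM in the line. Likeness was Pearson's r of log2(CPM + 0.1), centred by line, among genes averaging at least 5 CPM. Lists were described by counts and medians, without a set test. ELOVL4 was not analysed here. Some genes that the naming rules select are not reported here. Alternatives were other size factors, library totals, DESeq2 1.42.0, limma 3.58.1 voom, other filters, a replicate block, GC and length correction, each line alone and each library left out.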

Additional observations from a re-analysis of the deposited data

Results flagged for a closer look

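The effects of cantharidin sodium differed between the lines for 4 of the 10 lipogenic genes, by edgeR's test of the difference MKN1 minus AGS with Benjamini-Hochberg adjustment over all tested genes. Of all tested genes 15.7% passed, 8.38% positive and 7.3% negative. On the log2 scale the difference was 1.75 for FASN, 0.97 for ACLY, 0.92 for ELOVL1 and −1.16 for FADS2. For FASN and ELOVL1 the change was called in both lines, with opposite signs. The MKN1 call ended in 7 of 22 alternatives for FASN and in 14 of 22 for ELOVL1. In AGS the call of ELOVL1 ended in 4 of 22 and that of FASN in 0.

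The same test passed for some of the neighbouring genes named in the text, which are a selection from their lists; of the cholesterol enzymes, for example, 15 of 19 passed. It was positive for DHCR7 (2.44), INSIG1 (2.18), SQLE (1.98), MVK (1.94), FDFT1 (1.33), LPIN1 (1.13), IDH1 (0.71), AGPAT2 (0.68) and SLC25A1 (0.63). It was negative for ACSL5 (−1.67), DGAT1 (−1.34), PRKAA1 (−1.22), ACADS (−1.19), ECI1 (−1.10), MBTPS2 (−1.06), LPIN2 (−0.97), FADS3 (−0.95), ACADVL (−0.66), ME2 (−0.63) and SCAP (−0.61).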

How the results depend on the processing

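Members' values kept direction and side of the threshold in 949 alternatives, lost the call in 49, gained it in 17 and turned sign in 14. Sign turned in AGS for ACACA with GC and length correction (−0.00387; −0.00595 with the block too) and ACSS2 (0.10 and 0.10), and between treated lines for ELOVL1 (−0.25). In MKN1 FADS1 gave 0.02 with library totals. With single libraries left out, the ranges of those that turned were −0.0600 to 0.0142 for ACSS2 in AGS, −0.147 to 0.0775 for FADS1, −0.0659 to 0.387 for FADS2 and −0.116 to 0.420 for ELOVL6 in MKN1, −0.516 to 0.0190 for the ELOVL6 difference and −0.0685 to 0.148 for ELOVL1 between treated lines. The cause was not tested. Members called with one library left out numbered 3 to 4 in AGS, 0 to 4 in MKN1, 3 to 5 for the difference, 6 to 9 between untreated and 7 to 8 between treated lines. All tested genes called were 4214 in AGS (2051 to 5533 with a library left out; 8368 with AGS alone), 1358 in MKN1 (336 to 3160; 34 with MKN1 alone, 809 with no filter, 2459 with DESeq2), 3180 for the difference (2098 to 4643), 13452 between untreated (12432 to 13875) and 13818 between treated lines (12964 to 14741). Fitting a line alone leaves fewer libraries to estimate the spread.

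With a library left out, list calls in AGS were 2 to 6 (supply), 2 to 5 (elongation), 0 to 3 (mitochondrial synthesis), 4 to 8 (regulators), 4 to 7 (glycerolipid), 0 to 7 (oxidation) and 12 to 17 (cholesterol); with AGS alone 4 mitochondrial, 12 regulator, 11 glycerolipid and 8 oxidation genes passed, and with no filter 1 mitochondrial gene. In MKN1 the ranges were 1 to 2, 1 to 2, 0 to 0, 0 to 2, 2 to 4, 1 to 3 and 4 to 8. With MKN1 alone 0 members and 0 genes of the supply, elongation, regulator, glycerolipid, oxidation and cholesterol lists passed, and with no filter 0 members. Supply calls were 2 with DESeq2 size factors, GC correction, voom and DESeq2, elongation calls 1 with library totals or no filter, and DESeq2 gave 2 regulator, 5 glycerolipid and 5 oxidation calls.

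The labels' replicate numbers were not shown to pair libraries: same-numbered deviations correlated at 0.012, 0.020 and −0.044 in AGS and 0.080, −0.040 and 0.176 in MKN1. With the replicate block 1 member passed in MKN1 (ACLY, adjusted p = 0.0429; FASN had 0.0571 and ELOVL1 0.065), with 2 supply and 1 elongation calls; with the block and GC correction 2 supply and 5 glycerolipid genes passed and ELOVL1 missed in AGS (adjusted p = 0.0971). In AGS, FADS1 and ME1 had at most 25 reads a library, which limits the precision of their changes.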

Other observations

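Beyond the 10 genes, 2 enzymes of the elongation cycle were near absent from AGS; they were chosen after their values were seen. ELOVL5, the elongase of polyunsaturated chains that works between FADS2 and FADS1, had 226.3, 186.3 and 215.5 CPM in treated MKN1 libraries and 238.6, 205.4 and 245.9 CPM in untreated MKN1 libraries. AGS gave 7, 6 and 4 reads of it when treated and 5, 2 and 0 when untreated. HSD17B12, the ketoacyl reductase of the elongation cycle, had 140.1, 140.6 and 126.4 CPM in treated MKN1 libraries and 109.6, 94.6 and 112.3 CPM in untreated MKN1 libraries. In AGS it had 3, 2 and 0 reads when treated and 0, 4 and 0 when untreated, and 21.6% of its exon bases overlap other genes. Both genes passed the low-count filter only through MKN1.

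SCD5, another stearoyl-CoA desaturase gene, and ELOVL7, another elongase, were read in both lines. SCD5 averaged 8.43 ± 1.61 CPM in treated MKN1, 11.3 ± 2.37 CPM in untreated MKN1, 17.2 ± 1.75 CPM in treated AGS and 20.3 ± 1.01 CPM in untreated AGS (SD, n = 3 each). ELOVL7 averaged 45.1 ± 20.2 CPM in treated MKN1, 41.5 ± 6.69 CPM in untreated MKN1, 50.1 ± 1.88 CPM in treated AGS and 35.8 ± 0.251 CPM in untreated AGS. Neither change with treatment passed in either line by edgeR, with adjusted p of 0.177 in MKN1 and 0.363 in AGS for SCD5, and of 0.807 in MKN1 and 0.164 in AGS for ELOVL7.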
